A study of Mus musculus with 407 samples.

Results

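The genes described here are 10 markers and signals of the blood vessel wall, Pecam1, Cdh5, Kdr, Flt1, Tek, Tie1, Vegfa, Vegfb, Angpt1 and Apln, chosen by gene name from the 24458 gene symbols of the count tables. All 10 were found and all 10 passed the filter on low counts in every comparison. They were measured by RNA sequencing of whole muscle from C57BL/6J mice, an inbred laboratory strain, in 204 libraries from females and 203 from males. The muscles were the soleus (103 libraries), tibialis anterior (102), gastrocnemius (104) and diaphragm (98) of untreated mice aged 6, 12, 18, 21, 24 or 27 months, giving 48 groups of 6 to 10 libraries. Every muscle and sex had 8 libraries at 6 months and 10 at 27 months. The mice carried no transgene and received no agent. Tissue from an age group was taken on a single day, so age and day of collection cannot be told apart.

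Blood vessels are lined by endothelial cells, which are held together at their junctions by PECAM1 and by VE-cadherin, the product of Cdh5. Growth of capillaries is driven by VEGF-A, which muscle fibres secrete and which signals through the receptor VEGFR2, the product of Kdr. VEGFR1, the product of Flt1, binds VEGF-A tightly but signals weakly, and is also the receptor of VEGF-B. Angiopoietin-1 is made by cells around the endothelium and keeps vessels quiescent through TIE2, the product of Tek, while TIE1 is the related receptor that modulates TIE2. Apelin, the product of Apln, is released by sprouting endothelial tip cells and by muscle. In skeletal muscle these genes are best known for setting capillary supply, which is denser around oxidative than around glycolytic fibres.

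Levels are given as CPM, the counts of a gene as a share of its library's total, scaled over all libraries for differences in composition. The total count per library ran from 38583802 to 300089909, with a median of 72766895. The second deepest library had 104836980 counts, so a single library lay far above the rest. Raw counts of Vegfa were highest of the 10 genes (median 18494 per library) and those of Apln lowest (median 116, range 26 to 1293), so that Apln had the coarsest counts. A change is called where the Benjamini-Hochberg adjusted p over all genes tested was below 0.05 in the edgeR quasi-likelihood test, and errors of log2 changes are standard errors (SE).

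Before the results, 8 libraries stood apart, 7 of them from the diaphragm. Liver transcripts summed to over 1000 CPM in 3 of them (male diaphragm at 21 and at 27 months and female soleus at 18 months), against a median of 7.77 CPM in the other libraries. Mitochondrial ribosomal RNA was above 1000 CPM in 6 of them, all from the diaphragm, against a median of 23.3 CPM. Their correlation with their own group ran from 0.845 to 0.967, and the median over the other libraries was 0.970. Several results of the diaphragm are therefore also given without these libraries. Xist and the Y-linked genes separated the sexes as labelled: Xist was at least 560 CPM in each female library and at most 154 CPM in each male one. The 154 CPM came from a single male soleus library at 18 months, which was kept as labelled, and the next highest male had 22.5 CPM. Y-linked genes were at least 68.2 CPM in males and at most 6.34 CPM in females.

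In the mouse genome build GRCm38.p6, with RefSeq annotation, the receptor genes Kdr (chr5:75932827-75979072, minus strand) and Flt1 (chr5:147561604-147726438, minus strand) share a chromosome. The same holds for Tek (chr4:94739086-94874976, plus strand) and Tie1 (chr4:118471191-118489849, minus strand). Pecam1 lies at chr11:106654213-106715281 (minus strand) and Cdh5 at chr8:104101613-104144504 (plus strand). The ligand genes are Vegfa (chr17:46016993-46032377), Vegfb (chr19:6982472-6987651), Angpt1 (chr15:42424667-42676977) and Apln (chrX:48025146-48034853), all on the minus strand. The values are counts over the exons of each gene as a whole, and no isoform was separated.

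Promoter sequences are shown for the 4 receptor genes, since at 27 months Tek and Tie1 both fell in male gastrocnemius and in the tibialis anterior of both sexes, while of Kdr and Flt1 only Flt1 was called in one of these sets, female tibialis anterior. The windows are the 250 bases before the RefSeq start site in GRCm38.p6, cut short where an exon of the gene in the GENCODE annotation of that build begins, read 5′ to 3′ on the gene's own strand. Capitals mark GGAAG, the core of the binding motif of ETS factors, or its reverse complement CTTCC. The Kdr window is chr5:75978459-75978705 (247 bases), that of Flt1 chr5:147726012-147726261, that of Tek chr4:94739039-94739288 and that of Tie1 chr4:118490062-118490099 (38 bases). For Kdr, Flt1 and Tek the RefSeq gene begins further upstream than this start site, inside the window for Tek and beyond it for Kdr and Flt1. RefSeq exons were not used here, so these windows may hold bases of another RefSeq transcript.
Kdr: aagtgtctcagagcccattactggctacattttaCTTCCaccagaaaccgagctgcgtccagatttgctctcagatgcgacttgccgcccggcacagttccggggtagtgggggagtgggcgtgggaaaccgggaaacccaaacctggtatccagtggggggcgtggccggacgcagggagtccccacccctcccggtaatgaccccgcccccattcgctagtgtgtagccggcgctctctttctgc
Flt1: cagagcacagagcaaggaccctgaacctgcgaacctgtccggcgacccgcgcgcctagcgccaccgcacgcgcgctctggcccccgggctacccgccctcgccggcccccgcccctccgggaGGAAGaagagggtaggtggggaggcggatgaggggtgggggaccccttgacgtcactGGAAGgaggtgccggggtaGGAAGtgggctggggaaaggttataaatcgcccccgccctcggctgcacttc
Tek: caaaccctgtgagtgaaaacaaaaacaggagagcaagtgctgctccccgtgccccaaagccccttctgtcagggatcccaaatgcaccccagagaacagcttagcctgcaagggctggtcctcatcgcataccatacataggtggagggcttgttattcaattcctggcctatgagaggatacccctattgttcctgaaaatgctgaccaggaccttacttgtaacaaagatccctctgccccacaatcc
Tie1: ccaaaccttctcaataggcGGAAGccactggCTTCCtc
In the 250 bases GGAAG or its complement occurred 1 time for Kdr, 3 times for Flt1, 0 times for Tek and 6 times for Tie1. Of the 6 for Tie1, 2 lie in the 38 bases printed and the others reach into the part that was cut off. The motif was present on either strand in 64.1% of 32851 mouse promoters of the same length. ACGTG, the core of the hypoxia response element, occurred in none of the 4 windows, and in 16.6% of all promoters. These matches describe the letters of the windows and nothing more. The promoter table held 7 of the 10 genes, and Pecam1, Cdh5 and Angpt1 had no entry.

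Scaled to exon length, Vegfa and Vegfb were the most abundant of the 10 transcripts. Per kilobase of exon, the median level over all libraries was 78.6 CPM for Vegfa and 46.1 for Vegfb. The junction genes followed, with 21.6 CPM per kilobase for Cdh5 and 15.8 for Pecam1. The receptors stood at 11.5 (Kdr), 5.75 (Flt1), 5.65 (Tek) and 3.92 (Tie1), and the remaining ligands at 6.52 (Angpt1) and 0.564 (Apln). The VEGF ligands were thus above every receptor and Angpt1 was close to its receptor Tek, on a scale that compares genes only as far as their annotated exon length holds.

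**Figure D1:**
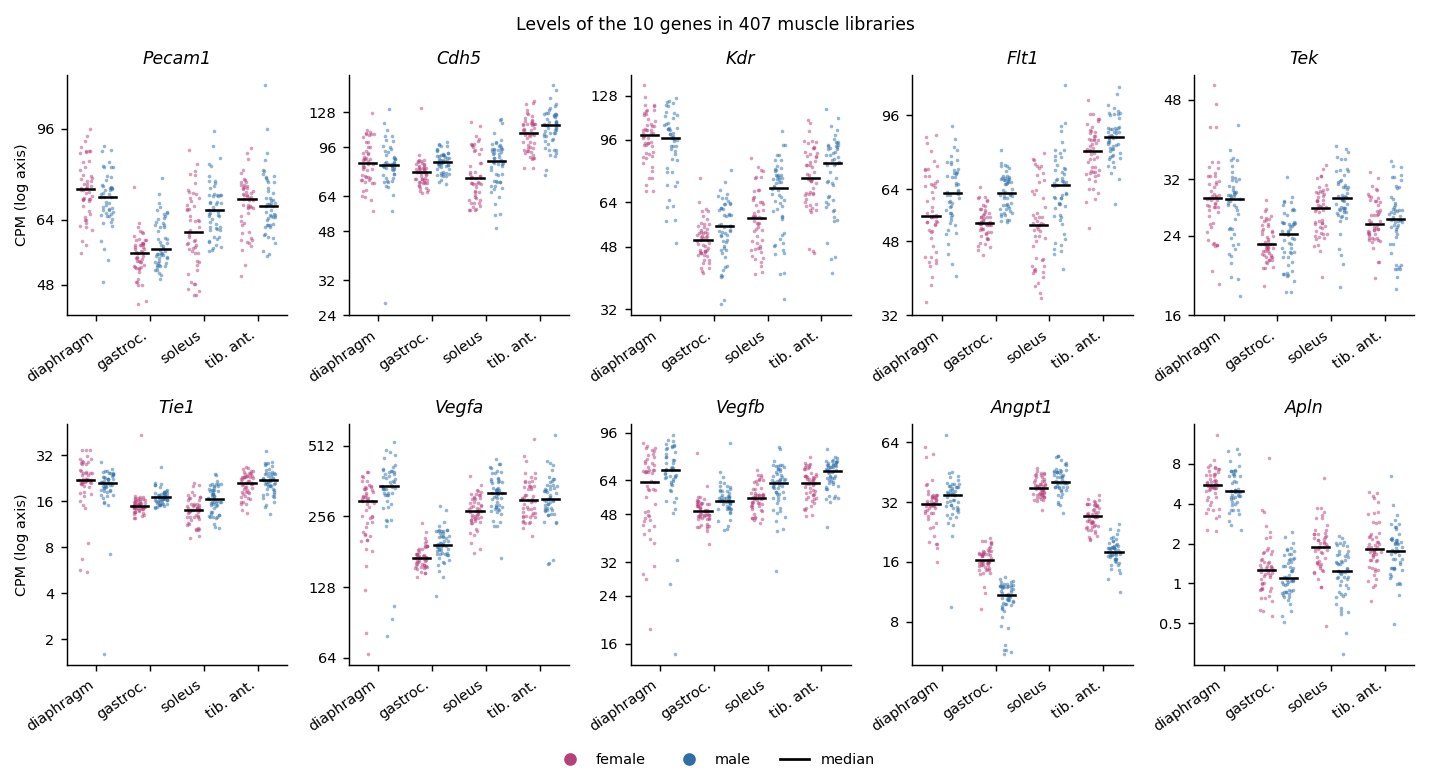
Level of each gene in CPM (logarithmic vertical axes, a separate scale per gene) in every library, by muscle. Each point is a library (pink, females; blue, males) and each black line the median. Angpt1 runs from a median of 12.8 CPM in the gastrocnemius to 39.5 CPM in the soleus, and Apln stands highest in the diaphragm (median 5.28 CPM).

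Muscles differed in each of these genes. Of the 60 comparisons between pairs of muscles (6 for each gene), 47 were called, in a fit over all libraries that averaged over ages and sexes. Such differences were general in these data: the share of all genes called was 88.7% for gastrocnemius against diaphragm, 85.0% for soleus against diaphragm, 88.8% for tibialis anterior against diaphragm, 79.0% for soleus against gastrocnemius, 66.2% for tibialis anterior against gastrocnemius and 78.9% for tibialis anterior against soleus. Muscles of a mouse are not linked in the labels, so the libraries entered as independent.

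Angpt1 differed most among the limb muscles. Its level ran from 28.3 to 54.5 CPM in the soleus (median 39.5), from 9.49 to 69.4 in the diaphragm (median 32.5), from 11.3 to 34.9 in the tibialis anterior (median 21.8) and from 5.51 to 21.0 in the gastrocnemius (median 12.8). The soleus and gastrocnemius libraries did not overlap. The soleus was 3.01-fold above the gastrocnemius (log2 difference 1.59 ± 0.036, adjusted p = 2.8e-147), and all 6 pairs of muscles were called for this gene.

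Apln was highest in the diaphragm. It ran from 2.49 to 13.1 CPM there (median 5.28), against medians of 1.80 in the tibialis anterior, 1.504 in the soleus and 1.22 in the gastrocnemius, and the ranges overlapped. The diaphragm was 4.16-fold above the gastrocnemius (log2 difference for gastrocnemius minus diaphragm −2.06 ± 0.077, adjusted p = 3.47e-87). All 6 pairs were called. Markers of mesothelium, the cell layer that covers the diaphragm, summed to a median of 68.7 CPM in the diaphragm and below 1 CPM in each limb muscle, where Upk3b and Wt1 had a median of 0. Other markers differed as well. Macrophage markers summed to a median of 224 CPM in the diaphragm and at most 82.6 in a limb muscle (soleus). Fibroblast markers had 1445 against at most 953 (soleus) and adipocyte markers 70.7 against at most 35.8 (gastrocnemius). Muscle-fibre markers were lowest in the diaphragm, with 74384 CPM against at least 177186 (soleus). The part of these cells in the diaphragm values was not tested.

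The VEGF ligands and their main receptor were lowest in the gastrocnemius. Vegfa had medians of 321 CPM in the diaphragm, 302 in the tibialis anterior, 293 in the soleus and 179 in the gastrocnemius. The first 3 did not differ from each other at the threshold (tibialis anterior minus soleus 0.07 ± 0.043, adjusted p = 0.139), while the soleus was 1.61-fold above the gastrocnemius (adjusted p = 2.54e-43). Kdr had medians of 98.3, 81.0, 62.5 and 51.8 CPM in the diaphragm, tibialis anterior, soleus and gastrocnemius. All 3 steps in that order were called, and the gastrocnemius was 0.87 ± 0.039 below the diaphragm on the log2 scale (adjusted p = 1.72e-68). Vegfb ran in the same order over a narrower range, from a median of 68.1 CPM in the diaphragm to 52.3 in the gastrocnemius, and its first step was not called (tibialis anterior minus diaphragm 0.02 ± 0.037, adjusted p = 0.647).

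Cdh5 and Flt1 were highest in the tibialis anterior and close to each other elsewhere. Cdh5 had a median of 111 CPM in the tibialis anterior, with 83.6 for diaphragm, 81.2 for gastrocnemius and 78.4 for soleus. None of the differences among the last 3 was called. Flt1 had 82.2 CPM in the tibialis anterior against 59.7, 58.8 and 57.2 in the diaphragm, soleus and gastrocnemius, where again no pair was called. The tibialis anterior exceeded the soleus by 0.45 ± 0.032 for Cdh5 and by 0.47 ± 0.031 for Flt1 (adjusted p = 6.76e-37 and 7.27e-40). Pecam1 kept to medians between 55.6 (gastrocnemius) and 72.2 CPM (diaphragm), with all 6 pairs called.

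The angiopoietin receptors did not share an order. Tek was highest in the diaphragm (median 29.0 CPM) and soleus (28.3), which did not differ at the threshold (−0.02 ± 0.026, adjusted p = 0.545), then in the tibialis anterior (25.9) and gastrocnemius (23.3). Tie1 was highest in the diaphragm (21.7) and tibialis anterior (21.4), which did not differ at the threshold (0.01 ± 0.046, adjusted p = 0.909), and lower in the gastrocnemius (15.98) and soleus (15.2). The soleus thus held a high level of Tek and a low level of Tie1. Without the 8 libraries that stood apart 51 pairs were called, among them Cdh5 in both pairs of the diaphragm with gastrocnemius and soleus (−0.07 in each, adjusted p = 0.0345 and 0.0237), Vegfa in soleus minus diaphragm (adjusted p = 0.0168) and Tie1 in soleus minus gastrocnemius (adjusted p = 0.0198).

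With age, falls were more frequent than rises among these genes. Of the 80 tests of 27 against 6 months (10 genes in 8 sets of a muscle and a sex), 14 fell, 5 rose and 61 were not called, where 7.32% of all tests fell and 8.01% rose. The falls lay mainly in the angiopoietin receptors and in the tibialis anterior. In bulk tissue, fewer endothelial cells and less RNA per cell cannot be told apart. Changes were small: 2 of the 80 were called and over 1.5-fold, both of them Apln, against 4.18% of all tests.

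**Figure D2:**
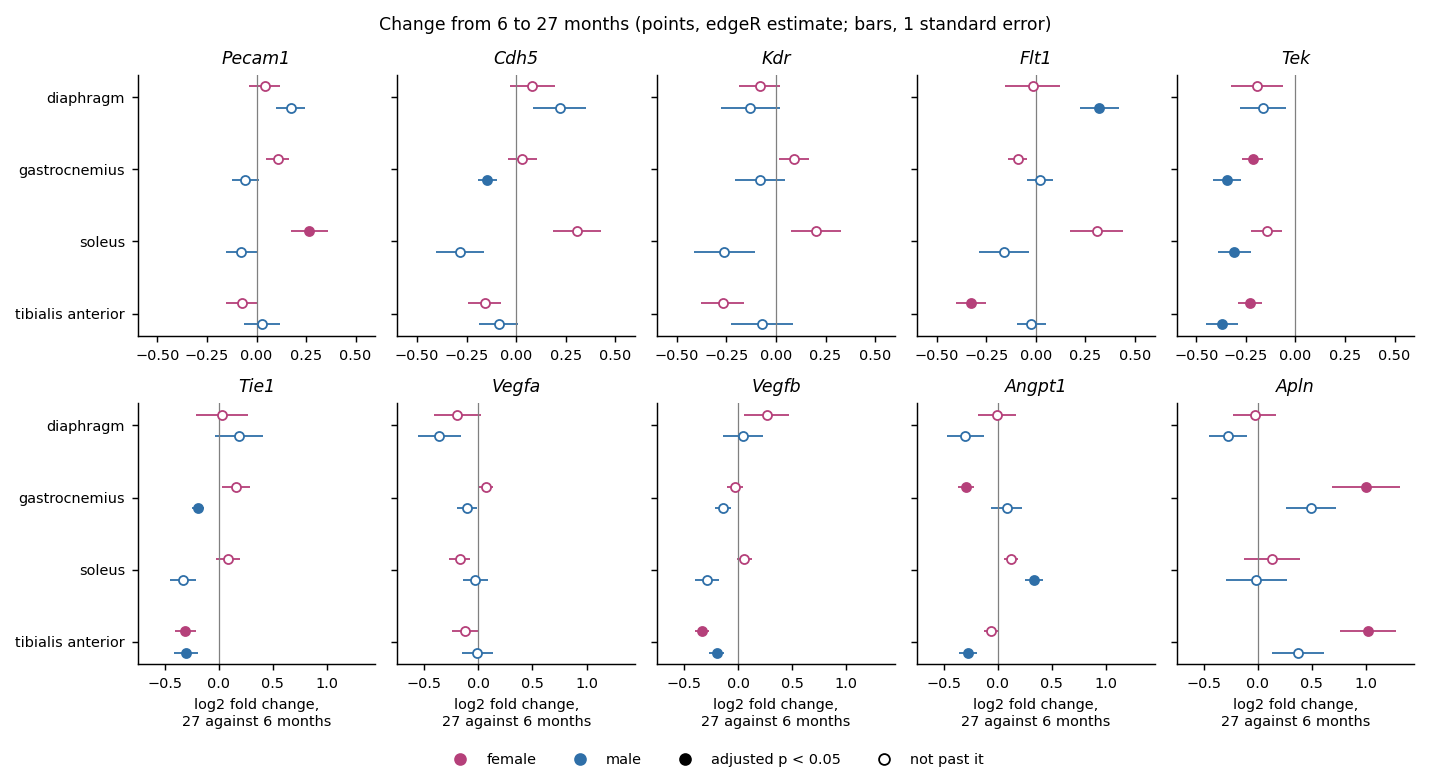
Log2 fold change of each gene from 6 to 27 months in each muscle (rows within a panel) for females (pink) and males (blue). Points are edgeR estimates, bars 1 SE, and filled points passed an adjusted p of 0.05; the lower panels have a wider horizontal axis. Every Tek estimate lies below 0, and 5 of its 8 points are filled.

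The 19 calls were spread unevenly. In female tibialis anterior 4 of the 10 genes fell and 1 rose, where 9.84% of all genes fell and 12.1% rose. In male tibialis anterior 4 fell and 0 rose, against 7.81% and 9.97% of all genes. In male gastrocnemius 3 fell and 0 rose, against 12.6% and 10.6%, and in female gastrocnemius 2 fell and 1 rose, against 14.6% and 14.6%. The soleus and diaphragm held the remaining calls. In male soleus 1 fell and 1 rose (all genes 1.05% and 1.8%), in female soleus 0 fell and 1 rose (8.74% and 10%), in male diaphragm 0 fell and 1 rose (3.52% and 5.13%), and in female diaphragm 0 fell and 0 rose (0.988% and 0.624%). The median change of all genes lay between −0.03 and 0.03 in every set.

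The number of falls called went up with age to 24 months, as did the share of all tests called. None of the 80 tests was called at 12 months, when 0.36% of all tests were. At 18 months 7 had fallen and 0 risen (3.17% of all tests called), at 21 months 9 had fallen and 1 risen (9.93%), and at 24 months 14 had fallen and 1 risen (12.1%). Taking any age over 6 months, 17 gene and set combinations fell and 6 rose, against 10.8% and 12.0% of all tests. A slope on age in months was negative in 16 combinations and positive in 8, against 9.92% and 11.2%. Without the 8 libraries that stood apart the counts at 27 months were the same (14 and 5), and the slope counts were 16 and 9.

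Tek, the angiopoietin receptor, fell in 5 of the 8 sets. In male gastrocnemius it ran from 26.7 to 32.4 CPM at 6 months (median 28.5, n = 8) and from 18.1 to 25.6 CPM at 27 months (median 22.3, n = 10). The ages did not overlap in this set. The fall was 0.35 ± 0.071 on the log2 scale (adjusted p = 0.000219). In male tibialis anterior the range moved from 28.4 to 35.1 CPM (median 32.5) to 20.2 to 29.0 CPM (median 25.4). All 10 older libraries lay below the 6-month median, and Tek fell by 0.37 ± 0.081 (adjusted p = 0.000825).

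In females the fall of Tek was of a like kind. The gastrocnemius ran from 22.6 to 28.7 CPM (median 26.1) at 6 months and from 20.3 to 24.5 CPM (median 22.5) at 27 months, a fall by 0.22 ± 0.052 (adjusted p = 0.00129). The tibialis anterior ran from 26.6 to 32.3 CPM (median 28.7) and then from 21.0 to 27.4 CPM (median 23.9), a fall by 0.23 ± 0.059 (adjusted p = 0.00329). In both muscles all 10 older libraries lay below the 6-month median, while the ranges overlapped. In male soleus the range of 30.7 to 37.3 CPM (median 34.6) became 18.5 to 32.7 CPM (median 27.8), a fall by 0.31 ± 0.083 (adjusted p = 0.0253). That call was lost without 27-month replicate 1 or without 6-month replicate 4 or 6 (−0.29 to −0.26, adjusted p 0.0524 to 0.0587). The other 4 falls were kept whichever of the 18 libraries was left out.

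Tek was called as lower at 18 months in the gastrocnemius of females (−0.19, adjusted p = 0.0183) and males (−0.33, adjusted p = 0.00665). The same held for male tibialis anterior (−0.45 ± 0.089, adjusted p = 0.00166). In female gastrocnemius Tek was not called at 21 months and was called again at 24 and 27 months. The medians in male tibialis anterior from 6 to 27 months were 32.5, 27.3, 25.1, 25.4, 26.1 and 25.4 CPM, so the level stayed near that of 18 months afterwards. Female tibialis anterior was called from 21 months on (−0.23, adjusted p = 0.0118). The remaining sets had negative estimates that were not called, with −0.14 in female soleus (adjusted p = 0.199), −0.20 in female diaphragm (0.553) and −0.16 in male diaphragm (0.394). Without the libraries that stood apart the diaphragm estimates were −0.18 and −0.24 (adjusted p = 0.363 and 0.129).

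**Figure D3:**
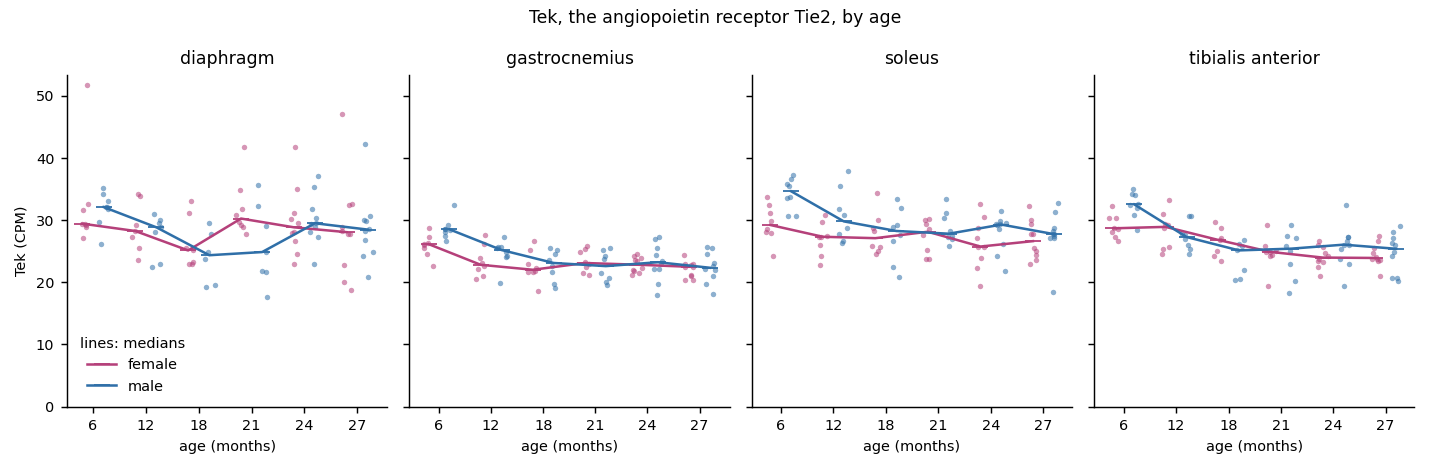
Tek in CPM in every library by age in months (ages drawn at equal spacing), in 4 panels for the muscles. Points are libraries (pink, females; blue, males) and lines join group medians. In male gastrocnemius all 10 libraries at 27 months (18.1 to 25.6 CPM) lie below all 8 at 6 months (26.7 to 32.4 CPM), while in the diaphragm single libraries reach 42.2 to 51.7 CPM at both ends of the age range.

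Relative to the other 5 endothelial genes (Pecam1, Cdh5, Kdr, Flt1 and Tie1), Tek was lower at 27 than at 6 months in 7 of 8 sets. The difference of its log2 CPM from their mean fell by 0.26 between the medians of male gastrocnemius, by 0.31 in male tibialis anterior and by 0.35 in female soleus, with all 10 older libraries below the 6-month median in each. In female tibialis anterior it changed by 0.03, where the other endothelial genes were lower as well. In male soleus it fell by 0.03, with 5 of 10 older libraries below the 6-month median. In female soleus Tek itself was not called at 27 months, while the slopes of Pecam1, Flt1 and Cdh5 on age were positive.

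Tie1, the partner receptor, fell in 3 sets at 27 months, each of them a set in which Tek fell. In male gastrocnemius it ran from 16.3 to 21.1 CPM at 6 months (median 20.1) and from 14.7 to 18.7 CPM at 27 months (median 17.2). All 10 older libraries lay below the 6-month median. The fall was 0.19 ± 0.058 (adjusted p = 0.0128), and Tie1 was called there at 18, 21, 24 and 27 months, with −0.28 at 24 months (adjusted p = 0.000499). In female tibialis anterior the range of 21.7 to 26.7 CPM (median 23.9) became 13.4 to 25.0 CPM (median 18.4), a fall by 0.31 ± 0.101 (adjusted p = 0.0214). In male tibialis anterior 24.1 to 34.4 CPM (median 25.4) became 17.0 to 28.6 CPM (median 21.1), a fall by 0.30 ± 0.108 (adjusted p = 0.0432), after −0.44 at 21 months (adjusted p = 0.0122).

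These Tie1 calls were less firm than those of Tek. The call at 27 months in male tibialis anterior was lost without any of 10 libraries (6-month replicates 0, 1, 3 and 5 and 27-month replicates 2, 3, 4, 5, 7 and 9; −0.31 to −0.25, adjusted p 0.0511 to 0.107), in male gastrocnemius without any of 4 (6-month replicates 0, 2 and 6 and 27-month replicate 1; adjusted p 0.0671 to 0.0812) and in female tibialis anterior without 27-month replicate 5 or 7 (adjusted p up to 0.0518). In male soleus Tie1 was lower at 24 months (−0.42 ± 0.121, adjusted p = 0.0361), with medians of 19.8 CPM at 6 and 15.1 CPM at 24 months, and was not called at 27 months (−0.33, adjusted p = 0.138). Female gastrocnemius had a median of 14.7 CPM at 27 months with 1 library at 43.4 CPM. Its estimate was 0.16 ± 0.129 (adjusted p = 0.368).

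The VEGF receptors moved with age chiefly in female tibialis anterior. Flt1 ran there from 81.7 to 104 CPM at 6 months (median 93.9) and from 59.5 to 91.6 CPM at 27 months (median 68.9). All 10 older libraries lay below the 6-month median. It fell by 0.33 ± 0.074 (adjusted p = 0.000942) and was called at 18, 21, 24 and 27 months, whichever library was left out of the 27-month comparison. In the tibialis anterior of males, the ranges were 81.9 to 108 CPM and 79.6 to 112 CPM, with an estimate of −0.02 ± 0.075 (adjusted p = 0.881). The difference between the sexes in this change was −0.31 ± 0.107 and was not called (adjusted p = 0.117, unadjusted p = 0.0051).

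In male diaphragm Flt1 was higher at 27 months. It ran from 44.9 to 60.1 CPM at 6 months (median 56.0) and from 52.5 to 80.8 CPM at 27 months (median 68.7), and 9 of the 10 older libraries lay above the 6-month median. The rise was 0.32 ± 0.099 (adjusted p = 0.0355). This call was lost without any of 11 libraries (6-month replicates 0, 1, 2, 3, 4, 6 and 7 and 27-month replicates 5, 7, 8 and 9; 0.28 to 0.32, adjusted p 0.0548 to 0.106), and with the run of sample numbers as a covariate the estimate was 0.17 (adjusted p = 0.685). Without the libraries that stood apart it was 0.31 (adjusted p = 0.0398).

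Kdr, the main signalling receptor of VEGF-A, was lower in female tibialis anterior at 21 months (−0.50 ± 0.116, adjusted p = 0.00245) and 24 months (−0.40 ± 0.110, adjusted p = 0.00768). The 6-month libraries ran from 74.4 to 109 CPM (median 91.3), those of 21 months from 45.9 to 74.7 CPM (median 70.4) and those of 27 months from 62.9 to 95.3 CPM (median 72.0). The ages of 6 and 21 months overlapped by a single margin, from 74.4 to 74.7 CPM. At 27 months the estimate was −0.27 ± 0.110 and not called (adjusted p = 0.0699), although it passed without 27-month replicate 1 or 3 or 6-month replicate 6 (adjusted p 0.0353 to 0.0407). No other set had a call for Kdr at any age.

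The junction genes changed little. Cdh5 fell in male gastrocnemius, from 80.2 to 100 CPM at 6 months (median 93.6) to 71.8 to 89.9 CPM at 27 months (median 83.9). All 10 older libraries lay below the 6-month median, and the fall was 0.15 ± 0.048 (adjusted p = 0.0228). It was lost without any of 6 libraries (6-month replicates 1 and 6 and 27-month replicates 1, 4, 5 and 7; −0.13 to −0.11, adjusted p 0.0502 to 0.117). In female tibialis anterior Cdh5 was lower at 21 months (−0.26, adjusted p = 0.0489) and 24 months (−0.28, adjusted p = 0.0174), and not called at 27 months (−0.16, adjusted p = 0.176).

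Female soleus went the other way. Pecam1 ran there from 45.8 to 63.98 CPM at 6 months (median 56.0) and from 55.8 to 79.4 CPM at 27 months (median 68.2). Of the older libraries 9 lay above the 6-month median, and the rise was 0.27 ± 0.092 (adjusted p = 0.0344). That call was lost without any of 9 libraries (6-month replicates 0, 1, 3, 4 and 6 and 27-month replicates 1, 5, 6 and 7; 0.23 to 0.26, adjusted p 0.0507 to 0.0895). The slopes on age were positive in female soleus for Pecam1 (0.33 ± 0.0817 over the 21 months, adjusted p = 0.00132), Flt1 (0.37 ± 0.114, 0.0101) and Cdh5 (0.32 ± 0.107, 0.0185). At 27 months Flt1 was above the 6-month median in 10 of 10 libraries (0.31 ± 0.134, adjusted p = 0.102) and Cdh5 in 9 of 10 (0.31 ± 0.123, adjusted p = 0.0736), the latter past the threshold without 27-month replicate 9 (0.35, adjusted p = 0.0351).

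Vegfa, the principal angiogenic ligand, had no call at any age in any set. Its estimates at 27 months lay between −0.36 ± 0.199 (male diaphragm, adjusted p = 0.252) and 0.07 ± 0.069 (female gastrocnemius, adjusted p = 0.5). In female soleus the libraries ran from 213 to 382 CPM (median 310) at 6 months and from 179 to 309 CPM (median 279) at 27 months, and all 10 lay below the 6-month median, with an estimate of −0.17 ± 0.099 (adjusted p = 0.229). In male diaphragm the range was wide at both ages, from 107 to 388 CPM and from 79.5 to 387 CPM, and without the libraries that stood apart the estimate was −0.42 (adjusted p = 0.0769). The SE of 0.069 to 0.217 over the 8 sets limits what could be seen.

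Vegfb, which acts through FLT1, fell in the tibialis anterior of both sexes. In females it ran from 62.0 to 77.9 CPM at 6 months (median 72.1) and from 47.5 to 65.9 CPM at 27 months (median 53.6). All 10 older libraries lay below the 6-month median and the ranges overlapped from 62.0 to 65.9 CPM. The fall was 0.33 ± 0.061 (adjusted p = 6.27e-05), and medians descended at every age step, with 72.1, 69.3, 65.5, 61.1, 57.4 and 53.6 CPM from 6 to 27 months. In males the range of 63.0 to 78.3 CPM (median 74.6) became 53.4 to 74.0 CPM (median 61.4), again with all 10 below the 6-month median. The fall was 0.20 ± 0.068 (adjusted p = 0.0348). The male call was lost without any of 8 libraries (6-month replicates 2, 3, 4 and 5 and 27-month replicates 2, 5, 6 and 8; −0.20 to −0.18, adjusted p 0.0532 to 0.0712), and the female call was kept whichever library was left out.

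Angpt1, the ligand of Tek, moved in opposite directions in different muscles. In female gastrocnemius it ran from 15.6 to 19.1 CPM at 6 months (median 17.4) and from 9.29 to 16.1 CPM at 27 months (median 14.6), with all 10 older libraries below the 6-month median. It fell by 0.30 ± 0.074 (adjusted p = 0.00184), whichever library was left out. Male tibialis anterior went from 15.5 to 23.1 CPM (median 19.7) to 11.3 to 19.1 CPM (median 16.9), again with all 10 below the median, and the fall was 0.28 ± 0.084 (adjusted p = 0.0174). It was lost without 6-month replicate 3 (−0.24, adjusted p = 0.0512).

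In male soleus Angpt1 rose. It ran from 28.3 to 40.3 CPM at 6 months (median 36.2), from 43.7 to 52.1 CPM at 21 months (median 45.4) and from 32.1 to 54.3 CPM at 27 months (median 44.9). The libraries of 6 and 21 months did not overlap, and 9 of 10 libraries at 27 months lay above the 6-month median. The rise was 0.40 ± 0.088 at 21 months (adjusted p = 0.0087) and 0.33 ± 0.083 at 27 months (adjusted p = 0.0143), the latter lost without 6-month replicate 5 (0.29, adjusted p = 0.0503). Tek fell in that same set at 27 months, so ligand and receptor moved apart there. In male gastrocnemius, where Tek also fell, Angpt1 ran from 5.51 to 12.4 CPM and from 5.81 to 11.9 CPM and was not called (0.08 ± 0.145, adjusted p = 0.728).

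**Figure D4:**
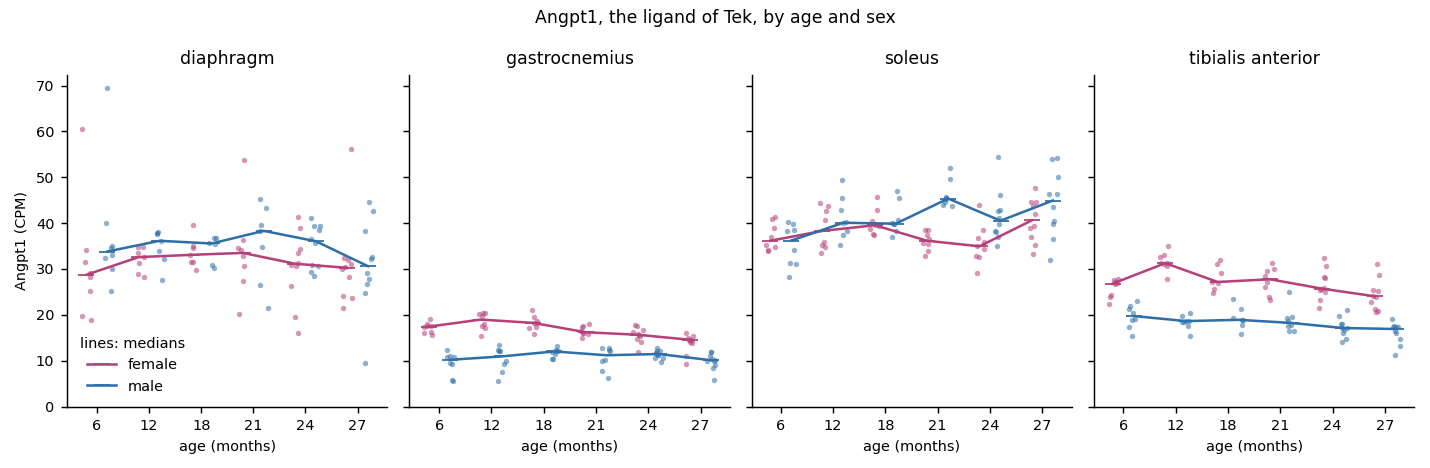
Angpt1 in CPM in every library by age in months (ages drawn at equal spacing), in 4 panels for the muscles. Points are libraries (pink, females; blue, males) and lines join group medians. Female points lie above male points in the gastrocnemius and tibialis anterior (female means 16.5 and 27.2 CPM, male means 10.5 and 18.1 CPM) but not in the soleus or diaphragm.

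Apln, the apelin gene, gave the changes of largest size. In female tibialis anterior it ran from 1.04 to 1.87 CPM at 6 months (median 1.496) and from 1.72 to 4.91 CPM at 27 months (median 2.38). All 10 older libraries lay above the 6-month median. It rose 2.03-fold (log2 change 1.02 ± 0.262, adjusted p = 0.00336), whichever library was left out. Among males of the same muscle it was 2.23-fold higher at 24 months (1.16 ± 0.243, adjusted p = 0.000889), with 1.30 to 6.46 CPM against 0.993 to 1.65 CPM at 6 months, and not called at 27 months (0.37 ± 0.242, adjusted p = 0.302).

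The rise in female gastrocnemius rested on a single library. It ran from 0.984 to 1.495 CPM at 6 months (median 1.36) and from 1.12 to 8.87 CPM at 27 months (median 1.999), and 8 of 10 older libraries lay above the 6-month median. The estimate was 1.00 ± 0.314 (2.01-fold, adjusted p = 0.0126). Without 27-month replicate 0, the library at 8.87 CPM, it was 0.54 (adjusted p = 0.119). That library was also the highest of its group for Pecam1, Cdh5, Kdr, Tie1 and Vegfb. In male gastrocnemius the estimate was 0.49 ± 0.228 (adjusted p = 0.112), and it passed the threshold without 27-month replicate 8 (0.61, adjusted p = 0.0438).

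**Figure D5:**
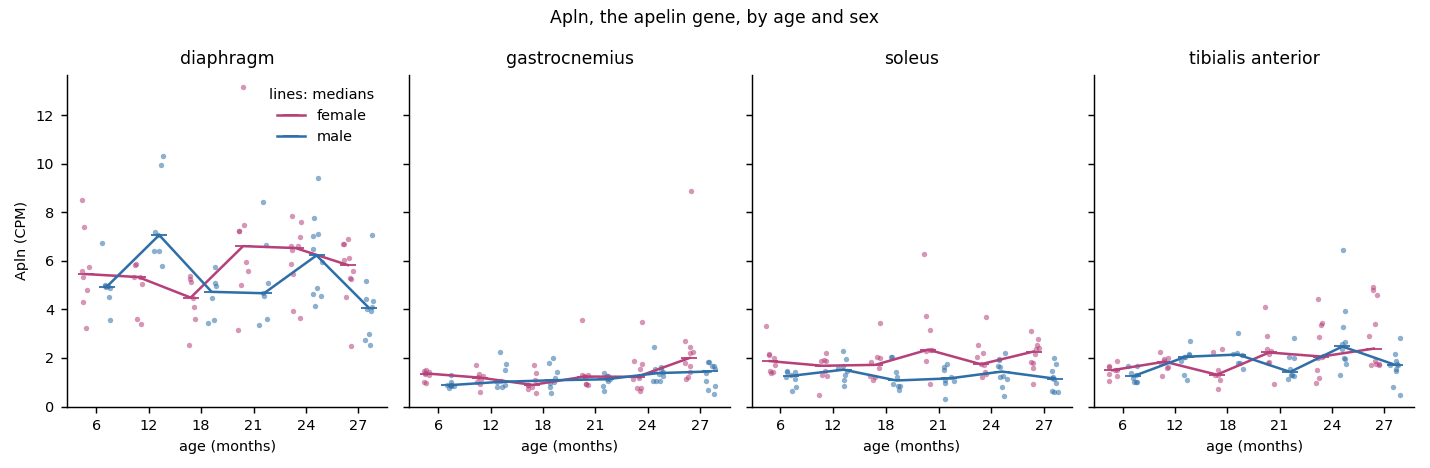
Apln in CPM in every library by age in months (ages drawn at equal spacing), in 4 panels for the muscles. Points are libraries (pink, females; blue, males) and lines join group medians. The diaphragm medians lie above those of the limb muscles at all ages, and single libraries of female gastrocnemius (8.87 CPM at 27 months) and male tibialis anterior (6.46 CPM at 24 months) stand above their groups.

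Whether the change from 6 to 27 months differed between muscles was tested in the fit over all libraries, with the sexes averaged. It differed for 4 of the 10 genes, Apln (adjusted p = 0.00615), Angpt1 (0.0132), Flt1 (0.0276) and Vegfb (0.0287), against 17.5% of all genes. The change of Apln was 0.74 ± 0.182 in the gastrocnemius and 0.68 ± 0.182 in the tibialis anterior, but 0.07 ± 0.178 in the soleus and −0.14 ± 0.173 in the diaphragm. The gastrocnemius estimate and the test for Apln include the female library at 8.87 CPM, and were not refitted without it. The change of Angpt1 was 0.23 ± 0.084 in the soleus and −0.12, −0.14 and −0.19 in the gastrocnemius, diaphragm and tibialis anterior. The soleus estimate was called (adjusted p = 0.0407) and those of the other muscles were not. Set directly against the gastrocnemius, the change in the soleus was 0.35 ± 0.119 higher and not called (adjusted p = 0.0543). For Flt1 the estimates were 0.17 ± 0.074 in the diaphragm and −0.20 ± 0.074 in the tibialis anterior, neither of them called. For Vegfb they were 0.16 ± 0.088 and −0.29 ± 0.087, and the tibialis anterior was called (adjusted p = 0.0141). With the sexes averaged Vegfa was also lower in the diaphragm (−0.27 ± 0.103, adjusted p = 0.0375) and Tie1 in the tibialis anterior (−0.33 ± 0.107, adjusted p = 0.0238). For Tek no difference between muscles was called (adjusted p = 0.492). Its changes were −0.17 in the diaphragm, −0.22 in the soleus, −0.29 in the gastrocnemius and −0.32 in the tibialis anterior, each of which was called. The fit used a single dispersion per gene for all muscles, so the SE of Tek was 0.062 in the diaphragm and gastrocnemius alike. Within a single sex neither Tek nor Vegfa was called in the diaphragm. These changes per muscle were not refitted without the 8 libraries that stood apart. In the test of differences between muscles, Tie1 was called as well without those libraries (adjusted p = 0.0339).

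The sexes differed mainly in the soleus and gastrocnemius, where most of the 10 genes were lower in females. Over 40 tests (10 genes in 4 muscles, ages averaged), 19 were lower and 4 higher in females. In the soleus 9 were lower and 1 higher, where 14.6% of all genes were lower and 16.3% higher. In the gastrocnemius 7 were lower and 2 higher, against 26.4% and 31.9%. In the tibialis anterior 2 were lower and 1 higher, near the shares of all genes (24.2% and 23.6%), and in the diaphragm 1 was lower and 0 higher, again near them (8.55% and 10.3%).

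Angpt1 in females was 1.60-fold above males in the gastrocnemius (mean 16.5 against 10.5 CPM, log2 difference 0.67 ± 0.048, adjusted p = 1.58e-23) and 1.49-fold above males in the tibialis anterior (27.2 against 18.1 CPM, 0.58 ± 0.033, adjusted p = 5.64e-29). The libraries of the sexes did not overlap at 4 of the 6 ages in each of these muscles. The share of all genes with such a gap is not given here. In the soleus Angpt1 was lower in females (38.1 against 41.7 CPM, −0.12 ± 0.031, adjusted p = 0.00194). In the diaphragm it was not called (31.8 against 34.5 CPM, adjusted p = 0.343), but without the 8 libraries that stood apart it was lower in females there too (−0.17, adjusted p = 0.0307).

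Apln was higher in females in the soleus (mean 2.05 against 1.28 CPM, 0.66 ± 0.114, adjusted p = 1.32e-06) and in the gastrocnemius (1.52 against 1.22 CPM, 0.26 ± 0.114, adjusted p = 0.046). The gastrocnemius call was lost with no filter on low counts (adjusted p = 0.062) and in limma-voom (0.141). Vegfa was lower in females in 3 muscles, by 0.30 ± 0.091 in the diaphragm (277 against 341 CPM, adjusted p = 0.0121), by 0.24 ± 0.046 in the soleus (273 against 324 CPM, adjusted p = 1.24e-05) and by 0.18 ± 0.034 in the gastrocnemius (173 against 196 CPM, adjusted p = 5.11e-06). In the tibialis anterior it stood at 310 against 312 CPM. Vegfb was lower in females in all 3 limb muscles, by 0.13 to 0.15, and without the 8 libraries that stood apart also in the diaphragm (−0.21, adjusted p = 0.0127).

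Among the receptors Flt1 had the largest difference between the sexes. It was lower in females in the gastrocnemius (mean 53.4 against 63.3 CPM, −0.23 ± 0.024, adjusted p = 6.26e-15), the soleus (53.9 against 65.2 CPM, −0.29 ± 0.055, adjusted p = 1.36e-05) and the tibialis anterior (78.4 against 85.3 CPM, −0.12 ± 0.032, adjusted p = 0.00114). Kdr, Tie1, Cdh5 and Pecam1 were each lower in females in 2 muscles, gastrocnemius and soleus, by 0.07 to 0.24, and Tek in the soleus alone (−0.09 ± 0.034, adjusted p = 0.0277). None of these 5 was called in the diaphragm or tibialis anterior.

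A test of whether the sex difference was the same in all muscles, added after the values had been seen, was called for 8 of the 10 genes, against 32.8% of all genes. The adjusted p was 6.4e-35 for Angpt1, 0.000568 for Pecam1, 0.00144 for Apln, 0.00408 for Tie1 and 0.00908 for Kdr. For Vegfa, Tek and Flt1 it lay between 0.0213 and 0.0246. Cdh5 (0.0604) and Vegfb (0.882) were not called. The female minus male difference of Angpt1 was 0.79 ± 0.070 lower in the soleus and 0.78 ± 0.071 lower in the diaphragm than in the gastrocnemius, and 0.08 ± 0.070 lower in the tibialis anterior (adjusted p = 0.824). That of Apln was 0.41 ± 0.149 greater in the soleus than in the gastrocnemius (adjusted p = 0.0375).

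The change from 6 to 27 months was not called as different between the sexes for any of the 10 genes in any of the 4 muscles with edgeR, against 1.02% of all tests. For Cdh5 in the soleus the change was 0.57 ± 0.175 higher in females (p = 0.00144, adjusted p = 0.0881). DESeq2 called that difference (0.58, adjusted p = 0.037) and no other. Values of Cdh5 in the soleus moved from a median of 70.7 to 90.4 CPM in females and from 94.2 to 80.4 CPM in males.

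Other genes of these pathways, from lists named alongside the 10, are given by their counts at 27 against 6 months over the 8 sets. Of 11 further genes of the VEGF, angiopoietin and apelin pathways, 9 could be tested, and in 72 tests 10 rose and 6 fell (13.9% and 8.33%). Over all genes in the same 8 sets, 8.01% of tests rose and 7.32% fell. Angpt2, the angiopoietin that loosens vessels, rose in female gastrocnemius (0.68 ± 0.141, adjusted p = 0.000225), male diaphragm (0.48 ± 0.140, 0.0273) and the tibialis anterior of females (0.66 ± 0.176, 0.00481) and males (0.65 ± 0.189, 0.0125). Aplnr, the apelin receptor, fell in male soleus by 1.30 ± 0.294 (adjusted p = 0.00588), in male tibialis anterior by 0.92 ± 0.281 (0.0167) and in male gastrocnemius by 0.83 ± 0.207 (0.00224). Pgf, a VEGF-family ligand of FLT1, rose in male tibialis anterior (0.72 ± 0.190, adjusted p = 0.00557), from a median of 0.362 to 0.535 CPM. Nrp2, a co-receptor of VEGF, rose in 4 sets by 0.23 to 0.46. Ptprb, the phosphatase VE-PTP that acts on TIE2, fell in male gastrocnemius (−0.23 ± 0.047, adjusted p = 0.000197) and in female gastrocnemius and tibialis anterior. Nrp2, Ptprb and the values of Aplnr and Angpt2 outside their set of largest change were chosen after their values were seen.

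Of 31 further endothelial identity genes, 13 rose and 19 fell in 248 tests (5.24% and 7.66%, near the 8.01% and 7.32% of all genes), and the median change per set lay between −0.15 (female tibialis anterior) and 0.16 (male diaphragm). Female tibialis anterior held 8 of the falls and 0 rises, where 9.84% of all genes fell, among them Nos3, the endothelial nitric oxide synthase (−0.30 ± 0.089, adjusted p = 0.0117), and Esam, a junction protein (−0.25 ± 0.087, adjusted p = 0.0284), both named after their values were seen. In the other direction Rgcc, a regulator of the cell cycle found in endothelium, rose in female gastrocnemius by 1.05 ± 0.145 (adjusted p = 1.81e-07) and in 4 other sets. Eng, the TGF-beta co-receptor endoglin, rose in female soleus (0.52 ± 0.128, adjusted p = 0.00297), and Cd34, which also marks fibroblast progenitors, fell in female diaphragm (−0.68 ± 0.147, adjusted p = 0.0068). Arterial and venous genes had 2 rises and 0 falls in 96 tests (2.08% and 0%, below the 8.01% and 7.32% of all genes). The rises were Selp in male gastrocnemius (1.22 ± 0.399, adjusted p = 0.0203) and Vcam1 in male diaphragm (1.06 ± 0.291, adjusted p = 0.0202), both adhesion molecules for leukocytes. Lymphatic genes had 1 rise and 2 falls in 56 tests (1.79% and 3.57%, also below the shares of all genes). The falls were Mmrn1 in female soleus (−0.66 ± 0.196, adjusted p = 0.0131) and Prox1 in male tibialis anterior (−0.57 ± 0.159, adjusted p = 0.00925). The rise was Pdpn in male gastrocnemius (0.41 ± 0.152, adjusted p = 0.0452).

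Genes upstream of Vegfa, which itself was not called at 27 months in any muscle and sex, were called about as often as genes in general. Of 11 genes of the hypoxia and coactivator route, 7 tests rose and 9 fell of 88 (7.95% and 10.2%, against 8.01% and 7.32% of all genes). Egln3, a prolyl hydroxylase that marks HIF proteins for destruction and is itself induced by hypoxia, rose in male gastrocnemius by 1.30 ± 0.173 (adjusted p = 1.14e-07), from a median of 18.4 to 50.6 CPM. Ppargc1a, the coactivator PGC-1alpha, rose there by 0.91 ± 0.288 (adjusted p = 0.017), while Esrra, its partner receptor, fell in female tibialis anterior by 0.30 ± 0.055 (adjusted p = 6.59e-05). Genes induced by hypoxia had 13 rises and 11 falls in 118 tests (11.02% and 9.32%), with Ddit4 higher in male diaphragm (1.04 ± 0.324, adjusted p = 0.0378) and Pfkfb3, a regulator of glycolysis, lower in female gastrocnemius (−0.89 ± 0.216, adjusted p = 0.00133). A list of 22 signals that act on angiogenesis, some of them inhibitors such as Vash1, had 13 rises and 9 falls in 176 tests (7.39% and 5.11%). Its largest called changes were those of Vash1 in female gastrocnemius (0.62 ± 0.167, adjusted p = 0.00383) and of Adm (0.60 ± 0.111, 7.3e-05) and Hgf (0.58 ± 0.193, 0.0236) in female tibialis anterior. The lists overlapped in part, Egln3 being among both the upstream and the hypoxia-induced genes, so some calls were counted in more than 1 list.

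Markers of other cells moved with age in the same sets. Over all genes in the 8 sets, 8.01% of tests rose and 7.32% fell. The 12 pericyte and smooth muscle genes had 4 rises and 11 falls in 96 tests (4.17% and 11.5%). In the diaphragm Higd1b fell in females (−1.03 ± 0.245, adjusted p = 0.0162) and Rgs5 (−0.61 ± 0.115, 0.00102) and Kcnj8 (−0.43 ± 0.121, 0.0248) in males. All 6 fibroblast markers had falls in female soleus, where 8.74% of all genes fell, and over the 8 sets 30 of 48 tests fell (62.5%) and 0 rose. Their summed level in male gastrocnemius, where Tek, Tie1 and Cdh5 fell, went from 1171 to 1448 CPM at 6 months to 612 to 939 CPM at 27 months. In female tibialis anterior, where Tek, Tie1, Flt1 and Vegfb fell, it went from 665 to 1150 CPM to 388 to 926 CPM. The fibroblast markers called in that set were the collagen genes Col1a1, Col1a2 and Col3a1 (−1.24, −1.12 and −0.52). Pdgfra, Dcn and Dpt were not called there (−0.13, −0.03 and −0.13, adjusted p = 0.401, 0.843 and 0.407). The 7 liver markers also rose there, from a summed median of 9.11 to 70.5 CPM, and macrophage markers rose in 4 of 8 genes, from a summed median of 41.4 to 52.7 CPM. Of all genes, 12.1% rose in that set. Slow-fibre markers had 14 rises and 1 fall in 48 tests (29.2% and 2.08%) and fast-fibre markers 1 rise and 13 falls in 56 (1.79% and 23.2%). In female gastrocnemius the summed slow-fibre level went from 792 to 1280 CPM at 6 months to 1204 to 2410 CPM at 27 months. The part of these cell and fibre types in the changes above was not tested. Counts over 8 sets for the remaining marker lists were 6 rises and 5 falls of 40 (muscle fibre, 15% and 12.5%), 7 and 0 of 56 (liver, 12.5% and 0%), 11 and 2 of 64 (macrophage, 17.2% and 3.1%) and 2 and 0 of 40 (adipocyte, 5% and 0%). They were 2 and 0 of 37 (erythroid, 5.41% and 0%), 1 and 0 of 20 (mesothelium, 5% and 0%) and 3 and 3 of 32 (Schwann cell, 9.4% each).

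Library by library, after group means were removed, the 6 endothelial genes varied together in part. Across the 15 pairs of these genes, the median Pearson r was 0.67 in the soleus (103 libraries), 0.60 in the tibialis anterior (102), 0.38 in the gastrocnemius (104) and 0.36 in the diaphragm (98). Over all libraries Cdh5 with Tie1 had the highest value (0.73), and Tek with Tie1 had 0.01. Within muscles, Tek with Tie1 had 0.56 in the tibialis anterior, 0.51 in the soleus, 0.11 in the gastrocnemius and −0.28 in the diaphragm, and in the diaphragm it was 0.18 over the 91 libraries left without those that stood apart. Among 17570 other genes, those most like the mean of the 6 were Cd300lg (0.80), Arhgef15 (0.75), Epas1 (0.74), Arap3 (0.73), Arhgap31 (0.72), Ptprb and Fgd5 (both 0.71), Ablim3 and Ushbp1 (both 0.69) and Mmrn2 (0.67). These values share library depth, RNA quality and cell content, and carry no test.

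The ligands were compared with other genes in the same way. Over all libraries the r of Vegfb with the 6 endothelial genes ran from −0.19 (Tek) to 0.68 (Tie1). Vegfa was most like Flcn (0.81), Perm1 (0.75) and Akap1 (0.74), and Vegfb most like Crat (0.91), Ogdh (0.90) and Coq9 (0.90), of which Ogdh and Coq9 encode a citric acid cycle enzyme and a protein of coenzyme Q synthesis. Angpt1 was most like Pkia (0.75), Lnp (0.75) and Kpna3 (0.74). Apln had no close match, with Prnd at 0.59, Ccnd1 at 0.52 and Cd93 at 0.50. With the 6 endothelial genes the median r of Vegfb lay between 0.28 and 0.46 in the 4 muscles, that of Apln between 0.14 and 0.28, that of Vegfa between −0.00257 and 0.16 and that of Angpt1 between −0.10 and 0.09.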

How the data were processed

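RNA from the muscle samples was sequenced by the authors as strand-specific total RNA libraries after removal of ribosomal RNA. Reads were aligned to the mouse genome and counted per gene with the ArrayStudio pipeline (version not given in the sources used). The deposited values are raw counts per gene, with replicates kept apart. Where a gene symbol had several rows, the row with the most counts was kept, and the 633 others of 25091, with 0.0335% of counts, were left out. Groups and replicates came from the labels, which give no link between muscles of a mouse, so p-values treat libraries as independent.

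Counts were tested with edgeR 4.0.16 in R 4.3.3 (quasi-likelihood test, TMM scaling, filterByExpr, Benjamini-Hochberg adjustment over all genes tested, threshold 0.05). Age was tested within each muscle and sex, against 6 months and as a slope. Sex was tested within each muscle over all ages. Muscles, and differences in change between muscles, were tested in a fit over all 48 groups (17580 genes). Printed levels are CPM scaled over all libraries, while fold changes come from each fit. Logarithms of CPM used a prior count of 0.5. The tests were tried on simulated counts. Levels per kilobase used the union of annotated exons.

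The 10 genes were named by symbol. From each further list the 3 genes with the largest change among those called at 27 months were named, with the 10 genes most correlated with the mean of the 6 endothelial genes and the 3 most correlated with each ligand. The genes and lists were chosen with earlier results of these data known. Alternatives were limma 3.58.1 (voom), DESeq2 1.42.0, other scaling and filters, Bonferroni adjustment, a replicate block, a run of sample numbers taken from the labels as a covariate, and leaving out libraries. The test of sex differences across muscles, leaving out single libraries and leaving out the 8 libraries that stood apart were chosen after seeing the data. Intervals and SE cover the spread between libraries only.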

Additional observations from a re-analysis of the deposited data

Results flagged for a closer look

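Among 480 combinations of a gene and a group of 6 to 10 libraries, 57 had a library far from the others of its group, spread over 30 libraries. Chance alone marks about 1 in 20 such groups. Each value is given with that of the nearest other library.

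The library of female diaphragm at 21 months, replicate 0 held Tie1 at 6.71 CPM against 21.8 and Apln at 13.1 CPM against 7.49. In female diaphragm at 24 months, replicate 3, the values were Tie1 at 8.55 CPM against 21.4. For female diaphragm at 27 months, replicate 0, the distant values were Tek at 47.1 CPM against 32.5, Vegfb at 18.2 CPM against 47.6 and Angpt1 at 56.1 CPM against 32.3. Female diaphragm at 6 months, replicate 2 stood apart for Kdr at 137 CPM against 106, Tek at 51.7 CPM against 32.6, Tie1 at 5.72 CPM against 20.0 and Angpt1 at 60.6 CPM against 34.0. The library of male diaphragm at 18 months, replicate 1 held Cdh5 at 64.7 CPM against 80.0. In male diaphragm at 24 months, replicate 4, the values were Cdh5 at 131 CPM against 102. For male diaphragm at 27 months, replicate 6, the distant values were Tek at 42.2 CPM against 30.7 and Tie1 at 7.19 CPM against 21.1. Male diaphragm at 6 months, replicate 2 stood apart for Pecam1 at 48.5 CPM against 63.5, Cdh5 at 26.5 CPM against 69.3, Tie1 at 1.6 CPM against 19.6, Vegfa at 107 CPM against 316, Vegfb at 14.6 CPM against 58.7, Angpt1 at 69.4 CPM against 40.0 and Apln at 6.74 CPM against 4.99. Of these diaphragm libraries, 5 were among the 8 that stood apart by liver or mitochondrial ribosomal RNA.

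The library of female gastrocnemius at 21 months, replicate 0 held Apln at 3.56 CPM against 1.32. In female gastrocnemius at 21 months, replicate 3, the values were Kdr at 54.95 CPM against 46.9. For female gastrocnemius at 24 months, replicate 8, the distant values were Apln at 3.47 CPM against 1.86. Female gastrocnemius at 27 months, replicate 0 stood apart for Pecam1 at 74.2 CPM against 63.3, Cdh5 at 132 CPM against 85.2, Kdr at 74.98 CPM against 61.1, Tie1 at 43.4 CPM against 15.6, Vegfb at 80.7 CPM against 54.5 and Apln at 8.87 CPM against 2.71. The library of male gastrocnemius at 12 months, replicate 7 held Tek at 19.8 CPM against 24.1, Tie1 at 26.7 CPM against 18.5 and Vegfb at 87.9 CPM against 63.2. In male gastrocnemius at 24 months, replicate 4, the values were Apln at 2.46 CPM against 1.63. For male gastrocnemius at 6 months, replicate 6, the distant values were Kdr at 78.8 CPM against 55.02, Tek at 32.4 CPM against 29.3 and Vegfa at 234 CPM against 194. Male gastrocnemius at 6 months, replicate 7 stood apart for Flt1 at 53.9 CPM against 61.8.

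The library of female soleus at 12 months, replicate 7 held Pecam1 at 72.5 CPM against 57.5 and Cdh5 at 101 CPM against 71.4. In female soleus at 18 months, replicate 5, the values were Pecam1 at 72.2 CPM against 60.7 and Cdh5 at 98.7 CPM against 75.2. For female soleus at 18 months, replicate 6, the distant values were Apln at 3.44 CPM against 2.03. Female soleus at 21 months, replicate 3 stood apart for Pecam1 at 87.2 CPM against 70.7 and Vegfa at 196 CPM against 253. The library of female soleus at 6 months, replicate 7 held Apln at 3.3 CPM against 2.14. In male soleus at 24 months, replicate 2, the values were Tie1 at 20.6 CPM against 15.8. For male soleus at 24 months, replicate 8, the distant values were Vegfa at 171 CPM against 323 and Vegfb at 29.7 CPM against 48.6. Male soleus at 27 months, replicate 1 stood apart for Tek at 18.5 CPM against 27.1.

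The library of female tibialis anterior at 21 months, replicate 0 held Vegfb at 47.5 CPM against 56.7. In male tibialis anterior at 21 months, replicate 5, the values were Angpt1 at 24.9 CPM against 19.4. For male tibialis anterior at 24 months, replicate 7, the distant values were Apln at 6.46 CPM against 3.91. Male tibialis anterior at 27 months, replicate 1 stood apart for Vegfa at 567 CPM against 344. The library of male tibialis anterior at 27 months, replicate 8 held Pecam1 at 116 CPM against 78.0. In male tibialis anterior at 6 months, replicate 0, the values were Pecam1 at 95.99 CPM against 79.7 and Tie1 at 34.4 CPM against 28.9.

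The change from 6 to 27 months differed between muscles in the test of that difference for Apln (adjusted p = 0.00615), Angpt1 (0.0132), Flt1 (0.0276) and Vegfb (0.0287). For Apln that test was not refitted without the female gastrocnemius library at 8.87 CPM. The difference between the sexes differed between muscles for Angpt1 (adjusted p = 6.4e-35), Pecam1 (0.000568), Apln (0.00144), Tie1 (0.00408), Kdr (0.00908), Vegfa (0.0213), Tek (0.0245) and Flt1 (0.0246), in a test chosen after seeing the data.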

How the results depend on the processing

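Of the counts given above, those at 27 months, over all older ages and for the slope stayed within 1.5 times under DESeq2 size factors, no filter, limma-voom, DESeq2, the run of sample numbers, the replicate block and without the libraries that stood apart. With a Bonferroni adjustment 0 genes rose and 1 fell at 27 months, 0 and 1 at any older age, and 0 and 3 by slope, 4 were lower in females, and the change differed between muscles for 0. With a fold change above 1.5 also required, 2 rose and 0 fell at 27 months, and 3 and 0 at any older age. DESeq2 found 1 difference in change between the sexes. Leaving out single 6- or 27-month libraries gave 11 to 15 falls and 4 to 6 rises. No result reversed. DESeq2 size factors, which shift the median of all genes by −0.10 to 0.02 between muscles, called 55 of the 60 muscle pairs and lost 0 of the 47. Single calls lost were Flt1 in male diaphragm (DESeq2 size factors, no filter, limma-voom and the block, adjusted p 0.0547 to 0.0934, and the run of sample numbers, 0.685), Cdh5 in male gastrocnemius (DESeq2 size factors, 0.0534), Tie1 in male tibialis anterior (run of sample numbers, 0.0609), Kdr by sex in the gastrocnemius (limma-voom, 0.0847), Apln by sex in the gastrocnemius (no filter, limma-voom and the block, 0.062 to 0.141), the slope of Flt1 in male diaphragm (run of sample numbers, 0.128), and, with the logarithm of age, the slopes of Pecam1 in female gastrocnemius (0.101) and Vegfb in male gastrocnemius (0.0828). Bonferroni adjustment lost 55 of 66 single calls. The cause was not tested.

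Replicate numbers are shared between groups, but same-numbered limb muscles of a sex and age correlated with a median of 0.0729 (126 of 306 pairs, or 41.2%, over 0.1), against −0.0107 for differently numbered ones (12.4% over 0.1). This is a hint that some numbers mark a shared mouse, but since most pairs did not pass 0.1 and no label ties them, the numbers were not taken to pair samples, and tests between muscles treat libraries as independent. The replicate block of the age tests was fitted within a muscle and sex, where libraries of different ages come from different mice. It therefore could not account for muscles of a shared mouse. With this block 5 genes rose and 12 fell at 27 months. Cdh5 in male gastrocnemius (adjusted p = 0.0568), Vegfb in male tibialis anterior (0.0745) and the slopes of Pecam1 (0.0586) and Apln (0.0559) in female gastrocnemius were not called. Over the limb muscles alone, fitted with limma-voom, 28 of 30 muscle pairs were called with the block and 27 without it, and the change differed between muscles for 2 genes and 1 gene. Apln counts, with a median of 116 per library, limit its precision most.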
